A study of Ovis aries with 9 samples.

Results

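The genes described here are the heat-shock proteins and J-domain proteins of sheep hypothalamus, found by a RefSeq symbol that starts with HSP or DNAJ. Of 21284 genes with annotated mRNA transcripts in the deposited table, 70 carried such a symbol, and the 60 whose mean over the 9 libraries was at least 1 FPKM (sequenced fragments scaled to transcript length and to the library total) were kept, 37 named DNAJ and 23 named HSP. The hypothalamus of 9 Dolang ewes was sequenced with poly-T selected RNA, 1 animal per library and 3 animals per stage. Prepuberty ewes were 120 or 121 days old, calm and refused rams, puberty ewes were 130 or 131 days old and showed their first estrus signs, and postpuberty ewes were 150 or 151 days old and had returned to the calm state. All animals were healthy and kept alike, so stage and age cannot be told apart. Libraries are named by stage and replicate number, and sets of 3 values follow the order of replicates 1, 2 and 3.

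Chaperones of the HSP70 family hold unfolded stretches of other proteins in cycles driven by ATP. J-domain proteins bring clients to HSP70 and trigger its ATP hydrolysis, while HSP110 proteins release the spent nucleotide. HSP90 finishes the folding of kinases and steroid receptors, and small heat-shock proteins bind unfolding proteins without ATP. Some of these genes are transcribed at all times, others are switched on by the heat-shock factor HSF1 when proteins unfold, and neurons use several of them to strip clathrin from vesicles and to keep synaptic proteins folded.

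Of the 10 genes left out, the nearest to the threshold were HSPA6 at a mean of 0.867 FPKM, HSPA1L at 0.863 and DNAJB13 at 0.811. HSPA6 and HSPA1L are both relatives of the inducible HSP70. The lowest genes kept were HSPB7 at 1.13, DNAJC25 at 1.20 and DNAJC24 at 1.91 FPKM.

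The library of Puberty 2 stood apart in its totals. The FPKM of all transcripts summed to 599726 in Puberty 2 and to between 359588 and 398109 in the other 8 libraries, and 54 of the 60 genes reached 1 FPKM in Puberty 2 against 58 to 60 elsewhere. HSPA5 and DNAJC13 were listed at 0 there, and a value listed at 0 can be a failed estimate, so no fold of a single gene is given against it. HSPA1A at 0.0375 and DNAJC2 at 0.0427 FPKM were nearly 0 in Puberty 2, and these values can be failed estimates too. Counts and medians over sets of genes keep HSPA5 and DNAJC13. The summed FPKM of 5 neuron markers was 265 in Puberty 2, 546 in Prepuberty 1, 401 in Postpuberty 1 and 985 to 1227 in the other 6 libraries. RBFOX3, SNAP25, STMN2 and NEFL were each below those 6 in both Prepuberty 1 and Postpuberty 1. For NEFL the gap was small in Prepuberty 1, at 260 FPKM beside 297 to 500. SYT1 was at 17.5 FPKM in Prepuberty 1 but at 52.8 in Postpuberty 1, within the 32.2 to 117 of those 6. Of 6 markers of endothelial and mural cells, CLDN5 was at 624 FPKM in Puberty 2 and at 54.7 to 114 in the other 8, whereas PECAM1, CDH5, FLT1, PDGFRB and RGS5 were each lowest in Puberty 2, with RGS5 listed at 0. Their sum was 633 FPKM there and 113 to 203 elsewhere. Other libraries stood apart in markers of neighbouring tissue. The choroid plexus gene TTR was at 7594 FPKM in Puberty 3, where the 4 ependyma and choroid plexus markers summed to 7624 against 15.9 to 733 elsewhere, and the pituitary gene PRL was at 199.5 FPKM in Postpuberty 1, where 6 pituitary markers summed to 204 against 0.246 to 81.9. Their part in the values below was not tested. The 16 hypothalamus markers summed to 29.9 to 171 FPKM. Among them SST was at 4.27 to 107, POMC at 2.09 to 22.4, TRH at 0.824 to 36.8 and NPY at 0.222 to 22.7 FPKM. CRH was at 117.6 in Prepuberty 1 and at 0.392 to 7.14 elsewhere. The rest of the list was low. AVP did not exceed 10.4, OTP 4.91, OXT 4.81 and HCRT 1.68 FPKM. PMCH, KISS1, AGRP, SIM1 and GHRH did not exceed 0.699, and NKX2-1 did not exceed 0.262. GNRH1 was listed at 0 in all 9 libraries. Results are therefore given for all 9 libraries and without Puberty 2. In bulk tissue, fewer cells of a type and less RNA per cell cannot be told apart.

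The 60 genes together summed to 2009 to 3005 FPKM in the 8 libraries and to 2122 in Puberty 2. Per unit of transcript length the most abundant were HSP90AA1 at a mean of 489 FPKM over the 9 libraries, HSPA8 at 432, HSP90AB1 at 210, HSPB1 at 208 and HSP90B1 at 112. Puberty 2 lay below the range of the other 8 libraries for 34 genes (56.7%) and above it for 15 (25%), beside 53.3% and 21.1% of the 12281 genes with a mean of at least 1 FPKM. The HSP and DNAJ genes thus stood low or high in Puberty 2 in shares close to those of all genes. The 3 furthest below, as a ratio to the median of the 8 and among those not listed at 0, were HSPA1A, DNAJC2 and DNAJC6. The 3 furthest above were DNAJB11, DNAJC17 and HSPB1.

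**Figure D1:**
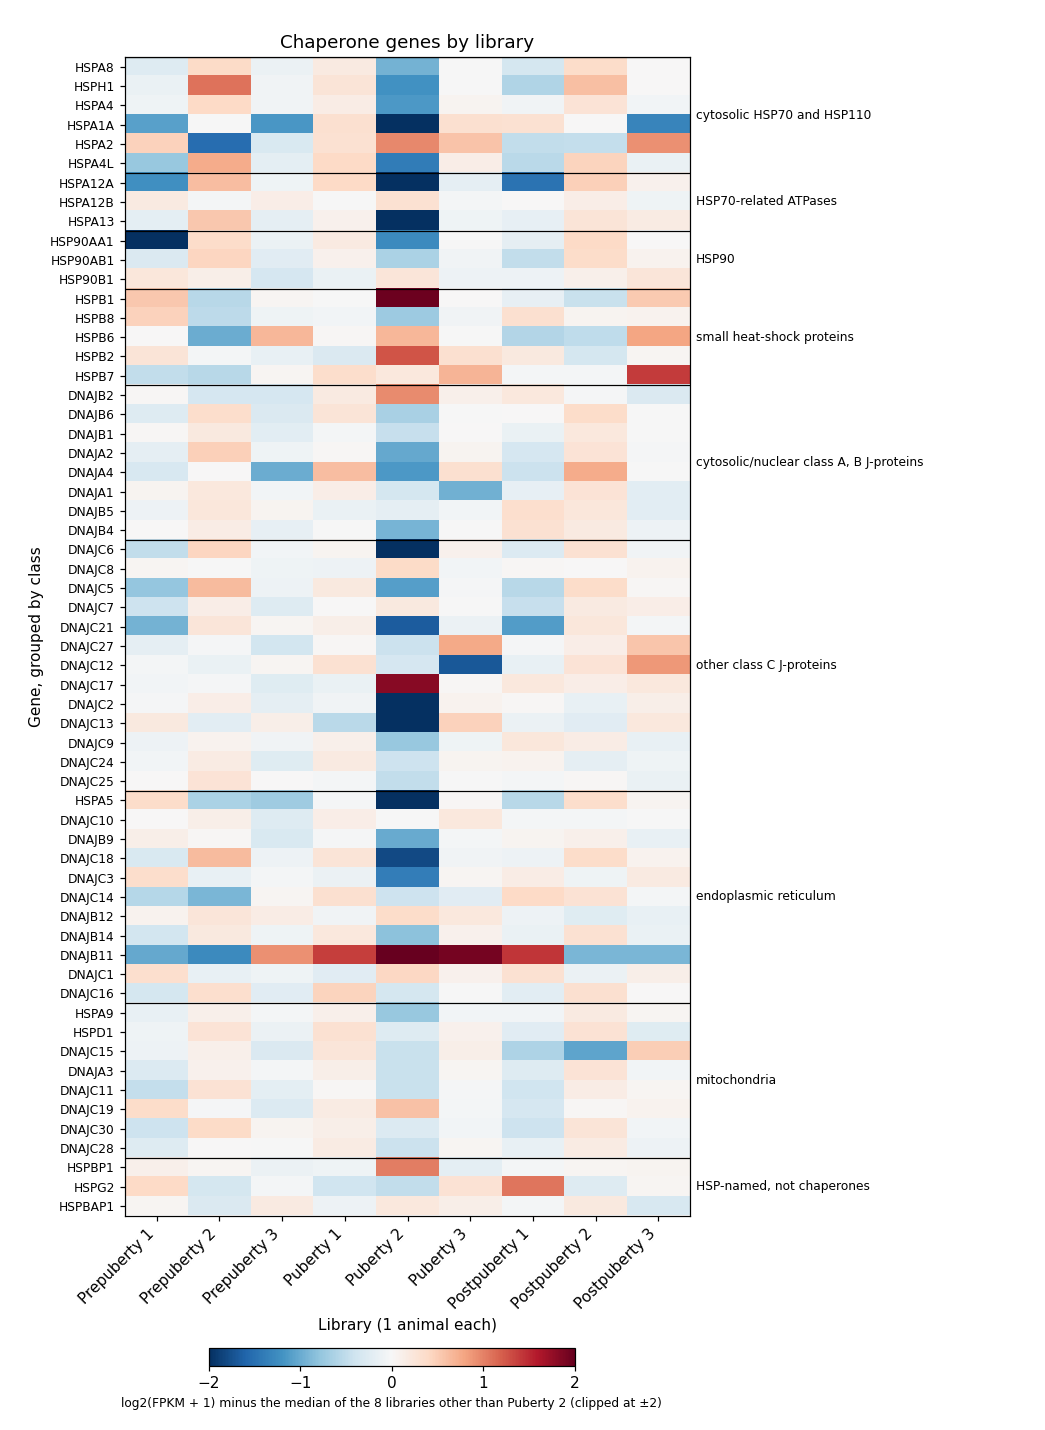
Each row is 1 of the 60 genes, grouped by class, each column is 1 library, and the colour is log2(FPKM + 1) minus the median of the 8 libraries other than Puberty 2, clipped at 2 in either direction. The Puberty 2 column is mostly blue (34 genes below the range of the others) with 15 genes above it, and no stage forms a block of 1 colour.

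The constitutive list held 13 measured genes. HSPA8, the constitutive HSC70 that also uncoats clathrin vesicles, was at 368, 578 and 409 FPKM in prepuberty, 500, 229 and 441 in puberty, then 348, 571 and 443 in postpuberty. Its 3 stages overlapped, and its highest values were those of Prepuberty 2 and Postpuberty 2. HSP90AB1, the constitutive cytosolic HSP90, was at 176, 293 and 184 FPKM, then 229, 139 and 206, then 154, 281 and 228. It followed the same order of high libraries, with its lowest value in Puberty 2. HSPA9, the HSP70 of the mitochondrial matrix, was at 40.8, 48.7 and 44.4 FPKM, then 48.8, 26.4 and 43.7, then 43.9, 51.7 and 46.6. Outside Puberty 2 it varied little, with a coefficient of variation of 7.66% over the 8 libraries.

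Several genes of this list varied widely between animals of one stage. DNAJC6, the neuronal auxilin that recruits HSPA8 to clathrin coats, was at 44.8, 85.9 and 60.6 FPKM in prepuberty, 65.9, 7.71 and 67.3 in puberty, then 52.2, 78.0 and 60.4 in postpuberty. DNAJC5, the cysteine string protein of synaptic vesicles, was at 21.8, 59.8 and 35.3 FPKM, then 43.7, 17.2 and 37.3, then 25.7, 49.1 and 38.9. HSPA12A, a distant HSP70 relative abundant in brain, was at 11.4, 43.6 and 26.4 FPKM, then 37.5, 4.72 and 24.6, then 9.48, 39.6 and 30.0. All 3 genes were low in Prepuberty 1, Postpuberty 1 and Puberty 2, the libraries with the lowest summed neuron markers, and high in Prepuberty 2 and Postpuberty 2.

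The remaining constitutive genes showed smaller spreads, apart from HSPA2. The HSP110 protein HSPA4 was at 28.5 to 40.2 FPKM in the 8 libraries and at 13.2 in Puberty 2. HSPA13, an HSP70 relative of the microsomes, was at 11.1 to 19.0 FPKM and at 2.44 in Puberty 2. The cytosolic co-chaperone DNAJA2 was at 18.3 to 32.7 FPKM and at 11 in Puberty 2, and its mitochondrial relative DNAJA3 was at 12.2 to 18.4 and 10.7. These 4 lay below their range in Puberty 2. DNAJC7, which binds both HSP70 and HSP90, was at 23.3 to 36.7 FPKM and at 37.3 in Puberty 2. DNAJC8, a J-protein of the splicing machinery, was the steadiest of the 60 genes at 42.4 to 48.0 FPKM over the 8 libraries (coefficient of variation 4.37%) and at 59.4 in Puberty 2. HSPA2, the HSP70 best known from spermatocytes, was at 18.0, 3.84 and 10.2 FPKM, then 16.1, 25.9 and 19.5, then 8.85, 9.0 and 25. It differed from most of the list in being lowest in Prepuberty 2 and highest in Puberty 2.

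The heat-inducible list held 9 measured genes. HSPA1A, the inducible HSP70 (chromosome 20, 26604033 to 26605958 in ARS-UI_Ramb_v3.0), was at 12.4, 27.1 and 11.6 FPKM in prepuberty, 34.4, 0.0375 and 34.5 in puberty, then 34.1, 27.6 and 10.3 in postpuberty. It was high in 5 libraries of all 3 stages, low in Prepuberty 1, Prepuberty 3 and Postpuberty 3, and far lower in Puberty 2 than in any other library. Its level was 0.0234 to 0.0982 of that of HSPA8 in the 8 libraries, so HSPA1A as listed was far below HSPA8 in each. HSPA1A lies within the annotated span of HSPA1L (26595268 to 26610265), and the sequences of the HSP70 genes are alike, so how the authors' estimates divided reads between them is uncertain. A second inducible HSP70 gene, HSPA1B, was not analysed here.

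HSP90AA1, the inducible cytosolic HSP90, was at 109, 697 and 498 FPKM in prepuberty, 609, 222 and 538 in puberty, then 476, 707 and 541 in postpuberty. Prepuberty 1 held the lowest value of the 9 libraries. The ratio of HSP90AA1 to HSP90AB1 was 0.619 in Prepuberty 1, 1.59 in Puberty 2 and 2.38 to 3.09 in the other 7 libraries. Prepuberty 1 was therefore the library in which HSP90AB1 exceeded HSP90AA1. The transcripts of HSP90AA1 were also divided differently there. XM_060401941.1 was at 46.7 FPKM, beside 2.25 to 12.3 elsewhere, and XM_027957416.2 at 62.5, beside 220 to 697. The part of this division in the low value was not tested. HSPH1, an inducible HSP110, was at 31.1, 74.0 and 32.6 FPKM, then 41.2, 14.3 and 34.1, then 22.3, 52.9 and 34.7. As for HSPA8, its 2 highest libraries were Prepuberty 2 and Postpuberty 2.

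DNAJB1, the J-domain partner of inducible HSP70, was at 28.6, 32.5 and 24.3 FPKM, then 27.3, 20.2 and 28.4, then 25.6, 32.7 and 27.9. Its coefficient of variation over the 8 libraries was 10.5%, against 45.1% for HSPA1A. DNAJA1, a cytosolic co-chaperone, was at 8.31 to 21.1 FPKM in the 8 libraries and at 13.2 in Puberty 2. DNAJB4 was at 6.04 to 8.76 FPKM and at 3.15 in Puberty 2, and the HSP110 relative HSPA4L at 5.96 to 18.9 and 3.51. HSPD1, the mitochondrial HSP60, was at 34.1 to 50.5 FPKM in the 8 libraries and marginally below that range in Puberty 2. It overlaps MOB4 on chromosome 2, a gene with a median of 85.4 FPKM. In Puberty 2, 6 of the 9 lay below the range of the other libraries, HSPD1 among them by a small margin, beside 53.3% of all genes. HSPB1 alone of the 9 lay above it.

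**Figure D2:**
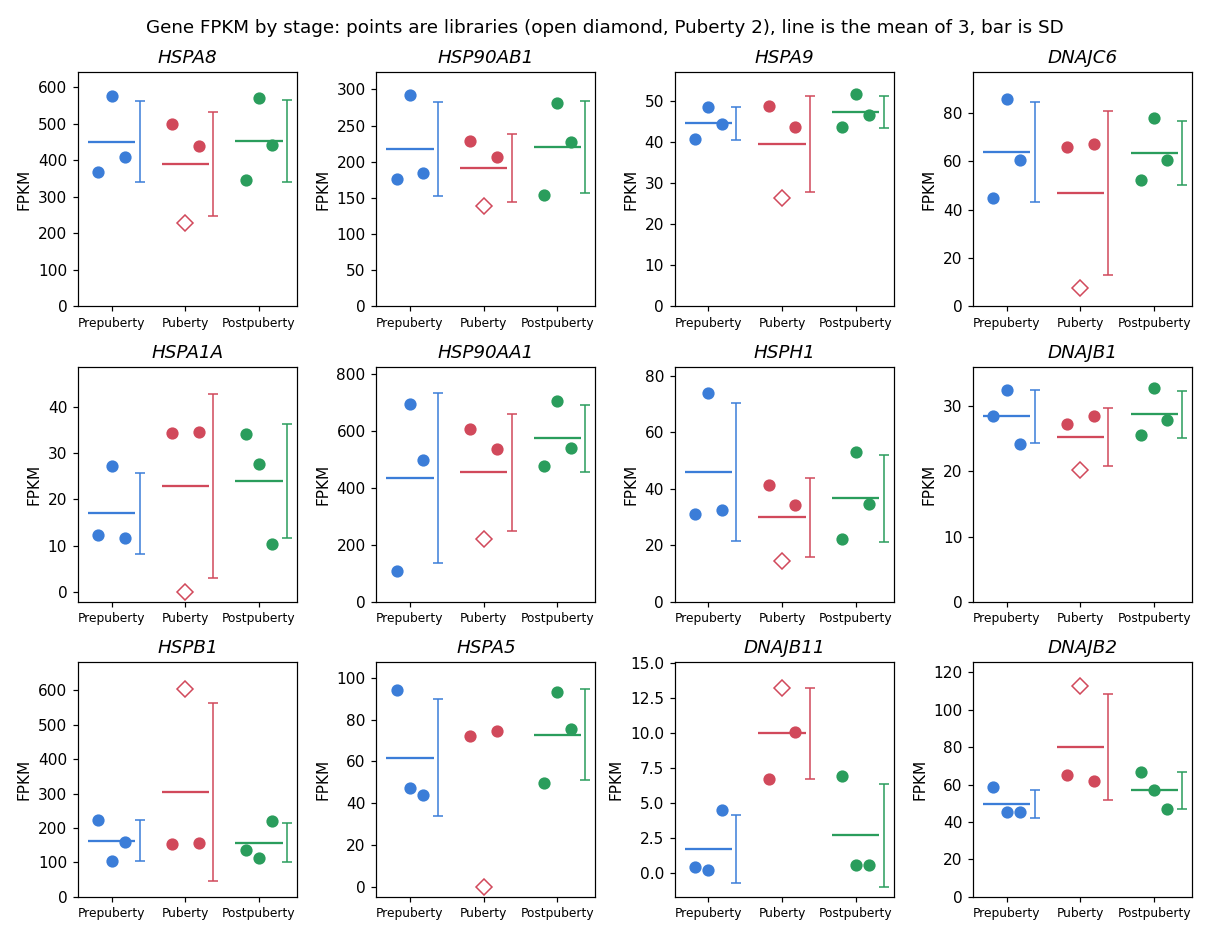
The FPKM of 12 genes is plotted by stage, with each point 1 library, the open diamond Puberty 2, the horizontal line the mean of 3 libraries and the vertical bar the SD (both left out for HSPA5 in puberty, where 1 library was listed at 0). HSPA1A shows 34.4 and 34.5 FPKM beside 0.0375 within puberty, and DNAJB11 is high in all 3 puberty libraries.

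To see whether inducible genes rose and fell together across animals, the log2(FPKM + 1) of the 8 other inducible genes was correlated with that of DNAJB1 over the 8 libraries without Puberty 2, and 0 of the 8 relations had an adjusted exact permutation p below 0.05. The strongest was HSPH1, with a Pearson r of 0.808 (two-sided exact permutation p = 0.0175, adjusted p = 0.14) and a Spearman rho of 0.595 (exact permutation p = 0.132, adjusted p = 0.324). Without Postpuberty 2 and Prepuberty 3, the 2 libraries farthest from the DNAJB1 median, r was 0.912. HSPA1A gave an r of 0.272 (exact permutation p = 0.521, adjusted p = 0.572) and a rho of 0.0714 (exact permutation p = 0.882, adjusted p = 0.882), with an r of -0.116 without the same 2 libraries. HSPB1 gave an r of -0.463 (exact permutation p = 0.253, adjusted p = 0.505) and a rho of -0.333 (exact permutation p = 0.428, adjusted p = 0.489), with an r of -0.374 without them. With all 9 libraries 6 of the 8 relations passed, among them a negative one for HSPB1 (r = -0.807), and the r of HSPA1A was 0.76, so both values were farther from 0 with Puberty 2 than without it.

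Over the 8 libraries the median coefficient of variation was 18.9% for the constitutive list, 27.9% for the heat-inducible list and 14.1% for the 8 genes of the endoplasmic reticulum list, beside 19.4% for the 60 genes and 22.9% for all genes. The values of single genes overlapped widely, at 4.37% to 50.5% in the constitutive and 10.5% to 45.1% in the heat-inducible list. The largest values belonged to DNAJB11 (102%), HSPB7 (97.6%), HSPA2 (50.5%), HSPG2 (47.1%) and DNAJC12 (46.5%). For 36 of the 60 genes the highest of the 8 libraries was less than 2 times the lowest, and for 13 it was more than 3 times.

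Variation was also shared across genes. Prepuberty 1 and Postpuberty 1, the libraries with the lowest neuron markers among the 8, were both below the other 6 for 17 of the 60 genes (28.3%, beside 11.4% of all genes). These 17 included 8 of the 13 constitutive genes, 3 of the 9 heat-inducible genes, 1 of the 8 genes of the endoplasmic reticulum list and 0 of the 5 small heat-shock proteins. In the same 2 libraries the summed astrocyte markers, at 7048 and 6043 FPKM, and the summed oligodendrocyte markers, at 13541 and 13248 FPKM, were the highest of the 8. GFAP made 6624 and 5632 FPKM of the astrocyte sums, and AQP4 (233 and 195) was also highest there. The astrocyte markers SLC1A3 (138 and 152), SLC1A2 (32.8 and 43.5) and ALDH1L1 (19.6 and 21.2) lay within the range of the other 6 libraries. The reverse, both libraries above the other 6, held for HSPB8, HSPG2 and DNAJC1 (5%, beside 10.5% of all genes). Prepuberty 2 and Postpuberty 2 were both above the other 6 for 20 genes (33.3%, beside 15.1%), of which 9 were constitutive, 5 heat-inducible and 0 of the endoplasmic reticulum list. This pair stood out by its values of HSPA8, HSP90AB1 and HSPH1, themselves among the 60 genes. Its share beside that of all genes is therefore a description and no support for a difference. In these 2 libraries the summed astrocyte markers were 2748 and 2705 FPKM, beside 3711 to 7048 in the other 7, with GFAP making 2348 and 2370 of them. The astrocyte markers SLC1A2 (74.4 and 70.1 FPKM), SLC1A3 (204 and 164) and ALDH1L1 (18.7 and 22) lay within the range of the other 7 libraries, and AQP4 (103 and 78.4) lay below 114 to 233 in the other libraries except Puberty 2 at 18.3. The summed oligodendrocyte markers were 5714 and 5634 FPKM, beside 8067 to 13541. The summed microglia markers were 107.9 and 75 FPKM, beside 108.2 to 343, and the summed endothelial and mural markers 113 and 121, beside 127 to 633. The part of cell composition in these values was not tested. Neither pair of libraries follows a stage, since each holds 1 prepuberty and 1 postpuberty animal.

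**Figure D3:**
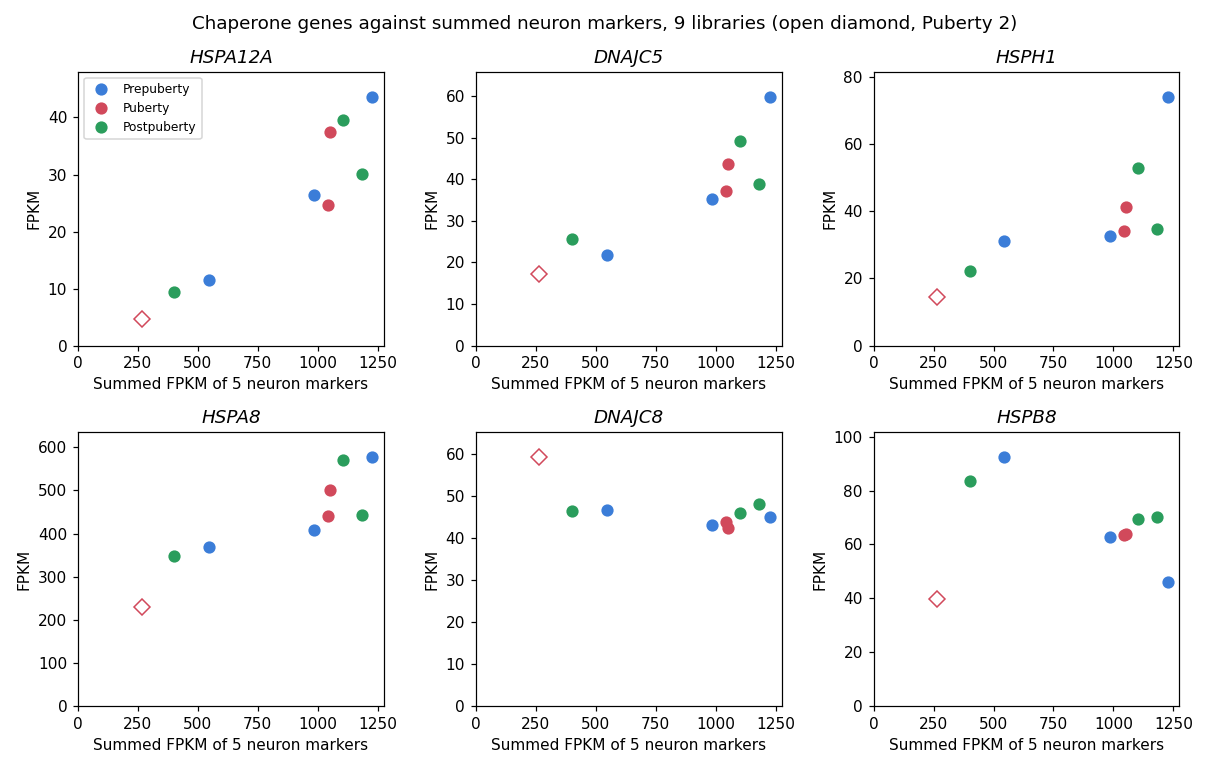
The FPKM of 6 genes (vertical axis) is plotted against the summed FPKM of 5 neuron markers (horizontal axis) in 9 libraries, coloured by stage, with Puberty 2 as an open diamond. HSPA12A, DNAJC5, HSPH1 and HSPA8 are low in the 3 libraries with sums of 265, 401 and 546, DNAJC8 is nearly level at 42.4 to 48.0 FPKM outside Puberty 2, and HSPB8 is highest in Prepuberty 1.

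The endoplasmic reticulum holds its own chaperone set. HSPA5, the HSP70 of this compartment known as BiP, was at 94.4, 47.1 and 44.2 FPKM in prepuberty, 72.1, 0 and 74.5 in puberty, then 49.7, 93.2 and 75.8 in postpuberty. HSP90B1, its HSP90 partner GRP94, was at 128, 118 and 86 FPKM, then 98.6, 129 and 102, then 101, 116 and 129. HSP90B1 was marginally above the range of the other libraries in Puberty 2, where HSPA5 was listed at 0. DNAJB9, which recruits HSPA5 to clients for degradation, was at 15.2 to 20.7 FPKM in the 8 libraries and at 9.02 in Puberty 2. DNAJC3, known as an inhibitor of the stress kinase PERK, was at 11.3 to 16.4 FPKM and at 4.24 in Puberty 2, and DNAJC10, a disulfide reductase, at 15.9 to 22.3 and 19.2. DNAJB12 and DNAJB14 are membrane J-proteins of protein degradation, at 5.34 to 7.91 FPKM and 3.78 to 6.65 FPKM in the 8 libraries.

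DNAJB11 (ERdj3, a secreted co-chaperone of HSPA5, chromosome 1, 201408866 to 201424153) had the largest spread between animals of the 60 genes. It was at 0.442, 0.218 and 4.52 FPKM in prepuberty, 6.66, 13.1 and 10.1 in puberty, then 6.92, 0.561 and 0.549 in postpuberty. Every puberty library was above every prepuberty library, whereas Postpuberty 1 lay within the range of puberty. In 5 libraries it was at 4.52 to 13.1 FPKM and in the other 4 at 0.218 to 0.561, and both levels occurred in prepuberty and in postpuberty. The gene has 1 annotated mRNA transcript, and other transcripts assembled at its locus are not part of the value. DNAJC14, which escorts a dopamine receptor out of the endoplasmic reticulum, was at 6.20, 4.64 and 9.94 FPKM, then 12.3, 7.03 and 8.15, then 13, 12 and 9.38. Its lowest values were those of Prepuberty 1 and Prepuberty 2. The other 3 genes of the compartment, DNAJC18, DNAJC1 and DNAJC16, were at 12.5 to 24.9, 1.81 to 3.14 and 1.44 to 3.22 FPKM in the 8 libraries and at 3.77, 3.35 and 1.43 in Puberty 2.

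The other mitochondrial J-proteins were low to moderate. DNAJC15 and DNAJC19, both parts of the protein import motor, were at 9.68 to 30.4 and 7.71 to 13.1 FPKM in the 8 libraries. In the same libraries DNAJC11, which helps to shape the inner membrane, was at 10.2 to 18.1 FPKM, DNAJC30 at 2.46 to 5.04 and DNAJC28 at 1.97 to 2.99. The sum of the 8 mitochondrial genes was 128 to 174 FPKM in the 8 libraries and 117 in Puberty 2.

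The 5 small heat-shock proteins summed to 738 FPKM in Puberty 2, of which HSPB1 made 603, and to 181 to 385 in the other 8 libraries. In Puberty 2 HSPB1 and HSPB2 lay above the range of the others, HSPB8 below it and HSPB6 and HSPB7 within it. HSPB1, also known as HSP27, was at 223, 105 and 159 FPKM in prepuberty, 153, 603 and 156 in puberty, then 137, 112 and 221 in postpuberty. The value of Puberty 2 was 3.91 times the median of the others, while Puberty 1 and Puberty 3 lay inside the range of prepuberty. HSPB8, which works with BAG3 in selective autophagy, was at 92.5, 46.1 and 62.6 FPKM, then 63.8, 39.8 and 63.4, then 83.6, 69.5 and 70.1. Unlike HSPB1, HSPB8 was lowest in Puberty 2. HSPB6, a muscle and brain small heat-shock protein, was at 23.8 to 84.2 FPKM in the 8 libraries and at 77.5 in Puberty 2. HSPB2 was at 4.59 to 7.88 FPKM and at 16.1 in Puberty 2. HSPB7, known from heart muscle, was at 0.229, 0.184 and 0.779 FPKM, then 1.22, 1.0 and 1.77, then 0.696, 0.685 and 3.60. Its 3 prepuberty values lay below its 3 puberty values, and 1 library, Postpuberty 3, was far above the rest.

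Among the cytosolic and nuclear class A and B J-proteins, DNAJB2, a neuronal protein that sorts HSP70 clients for degradation, was at 58.5, 45.3 and 45.3 FPKM in prepuberty, 65.1, 113 and 62.0 in puberty, then 66.8, 56.9 and 46.9 in postpuberty. All puberty libraries exceeded all prepuberty libraries, by a small gap outside Puberty 2, and postpuberty overlapped both. DNAJB6, a suppressor of polyglutamine aggregation, was at 40.6 to 65.2 FPKM in the 8 libraries and 31.6 in Puberty 2. DNAJA4 was at 10.4 to 37.0 and 9.19 FPKM, and DNAJB5 at 8.01 to 12.2 and 8.20. DNAJA4 and DNAJB6 thus lay below their range in Puberty 2, and DNAJB5 did not.

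The other class C J-proteins share little beyond the J-domain. DNAJC21 of ribosome maturation was at 6.29 to 17.7 FPKM in the 8 libraries and 4.0 in Puberty 2, and DNAJC2, a ribosome-bound co-chaperone, at 5.4 to 6.99 and 0.0427. DNAJC13 of endosomes was at 1.97 to 4.89 FPKM and listed at 0 in Puberty 2. DNAJC17, a splicing-related protein, was at 3.65 to 5.39 FPKM in the 8 libraries and at 18.4 in Puberty 2, so genes of this class moved in opposite directions in that library. DNAJC12, which assists the enzymes that hydroxylate aromatic amino acids, was at 6.20, 5.77 and 6.63 FPKM, then 8.11, 4.90 and 1.29, then 5.66, 7.95 and 12.6. Puberty 3 held its lowest and Postpuberty 3 its highest value. In the 8 libraries DNAJC27 was at 5.08 to 12.2 FPKM, the histone-binding DNAJC9 at 1.87 to 2.72, DNAJC24 of diphthamide synthesis at 1.55 to 2.41 and DNAJC25 at 1.05 to 1.72, and in Puberty 2 these 4 were at 4.83, 0.894, 1.25 and 0.607. Of the HSP70-related ATPases, HSPA12B of endothelium was at 11.1 to 13.4 FPKM and 14.8 in Puberty 2. The symbols HSPBP1, HSPG2 and HSPBAP1 belong to a regulator of HSP70, to the matrix protein perlecan and to a partner of HSPB1. They were at 9.98 to 12.5, 2.89 to 9.78 and 2.16 to 3.51 FPKM in the 8 libraries.

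The study was made to look for long noncoding RNAs with a part in the onset of first estrus, and the mRNA values of the same libraries allow each pair of stages to be compared, here with limma on log2(FPKM + 1). Fold changes on this scale understate the change of low genes, and a positive value means higher in the stage named first. Calls needed an adjusted p below 0.05 together with a log2 fold change of 1 or more in either direction.

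Between prepuberty and puberty limma called 0 of the 60 genes, with 0% of all 12281 genes called, and 1 of the 60 had an unadjusted p below 0.05, beside 1.51% of all genes (185). That gene was DNAJB11, at a mean of 1.73 ± 2.42 FPKM in prepuberty and 9.96 ± 3.24 FPKM in puberty (SD, n = 3). Its log2 fold change was -2.32 (SE 0.75, limma adjusted p = 0.82), and without Puberty 2 it was -2.11 (SE 0.88, limma adjusted p = 1). DNAJB2 had a log2 fold change of -0.63 (SE 0.29, limma adjusted p = 0.82), and without Puberty 2 of -0.36 (SE 0.20, limma adjusted p = 1). Without Puberty 2 limma again called 0 of the 60 genes (0% of all genes), with 1 of the 60 and 1.48% of all genes (182) at an unadjusted p below 0.05. Without Puberty 2, Prepuberty 1 and Postpuberty 1, the 3 libraries lowest in neuron markers, limma called 0 of the 60 genes (0.00814% of all genes), and DNAJB11, DNAJB2 and HSPA5 were the 3 with an unadjusted p below 0.05 (beside 2.23% of all genes). The median log2 fold change was 0.07 for the 60 genes and 0.16 for all genes with 9 libraries, and -0.05 and -0.02 without Puberty 2.

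For HSPA1A the direction turned with Puberty 2, where its value of 0.0375 FPKM can be a failed estimate. Its log2 fold change was 0.62 (SE 1.22, limma adjusted p = 0.865) with all 9 libraries and -1.08 (SE 0.53, limma adjusted p = 1) without Puberty 2. The same happened for HSPA8, at 0.26 (SE 0.37, limma adjusted p = 0.827) and -0.083 without Puberty 2. HSPB1 went from -0.65 (SE 0.56, limma adjusted p = 0.82) to 0.0048. Leaving out Prepuberty 1 and Postpuberty 1 as well gave -0.91 for HSPA1A, 0.0503 for HSPA8 and -0.259 for HSPB1. Of these genes, HSPA1A alone kept its turned direction. None of these differences exceeded the spread between animals by the test.

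The stages did not overlap for DNAJB2, DNAJB11 and HSPB7, higher in puberty (5% of the 60 genes, beside 2.09% of all genes), and for DNAJC25, higher in prepuberty (1.67%, beside 2.78%). In either direction these 4 were 6.67% of the 60, beside 4.88% of all genes. HSPB7 had a mean of 0.397 FPKM in prepuberty, 1.33 in puberty and 1.66 in postpuberty. It thus passed the threshold of 1 FPKM only through the later stages, and its place in the counts with or without Puberty 2 is no support for a difference. Without Puberty 2 there were 9 genes with both puberty libraries above all 3 prepuberty libraries (15%, beside 6.4% of all genes), namely DNAJB2, DNAJA4, HSPA1A, DNAJC15, DNAJC10, DNAJC27, DNAJB11, DNAJC28 and HSPB7. DNAJC25 remained the only gene higher in prepuberty (1.67%, beside 4.49%), which made 16.7% of the 60 in either direction, beside 10.9% of all genes. A single gene cannot pass an exact two-sided permutation test here, as the smallest p is 0.1 for 3 against 3 animals and 0.2 for 2 against 3. Among the 9, HSPA1A was at 34.4 and 34.5 FPKM in puberty against 11.6 to 27.1 in prepuberty.

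**Figure D4:**
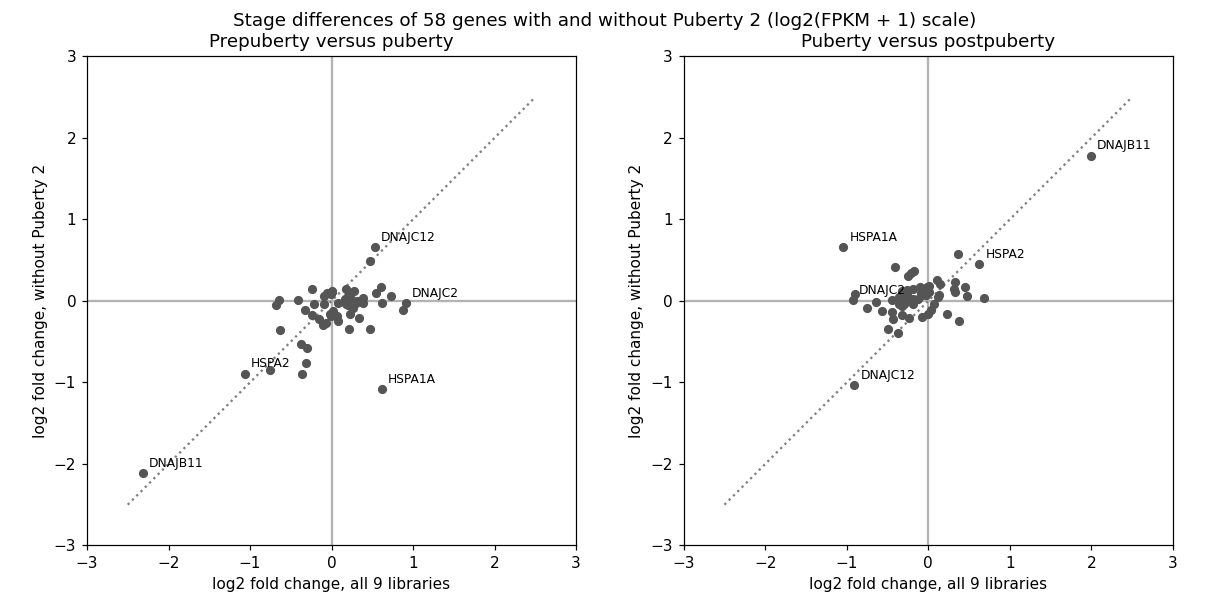
Each point is 1 of 58 genes (HSPA5 and DNAJC13, listed at 0 in Puberty 2, are left out), with the log2 fold change of all 9 libraries on the horizontal axis and that without Puberty 2 on the vertical axis, for 2 stage comparisons. DNAJB11 lies near the dotted line of equal values, at -2.32 and -2.11 for prepuberty versus puberty, while HSPA1A lies at 0.62 and -1.08.

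Between puberty and postpuberty limma called 0 of the 60 genes (0% of all genes), with 1 of the 60 and 1.81% of all genes (222) at an unadjusted p below 0.05. It was again DNAJB11, with a log2 fold change of 1.99 (SE 0.75, limma adjusted p = 0.764) and a postpuberty mean of 2.68 ± 3.67 FPKM (SD, n = 3). This comparison shares the puberty libraries with the one before, so it is not a separate sighting of the high puberty values. DNAJC12 had a log2 fold change of -0.91 (SE 0.49, limma adjusted p = 0.764). Without Puberty 2 limma called 0 of the 60 genes (0% of all genes), and at an unadjusted p below 0.05 there were 0 of the 60 and 1.81% of all genes (222). The log2 fold change of DNAJB11 was then 1.78 (SE 0.88, limma unadjusted p = 0.0813), about as large as with all 9 libraries. Without Puberty 2, Prepuberty 1 and Postpuberty 1 limma called 0 of the 60 (0% of all genes), and DNAJB11 alone had an unadjusted p below 0.05 (beside 2% of all genes). DNAJC10 and DNAJB12 were higher in every puberty library (3.33%, beside 1.62% of all genes) and HSPB8 in every postpuberty library (1.67%, beside 5.41%), together 5% beside 7.04%. Without Puberty 2 HSPA1A joined the first group (5%, beside 5.06%) and DNAJC8, HSPBP1 and DNAJC17 joined HSPB8 (6.67%, beside 8.22%), together 11.7% beside 13.3%. By direction these shares were below those of all genes in 3 of the 4 cases.

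Between prepuberty and postpuberty, neither of which holds Puberty 2, limma called 0 of the 60 genes (0% of all genes), with 0 of the 60 and 0.66% of all genes (81) at an unadjusted p below 0.05. With Puberty 2 removed from the estimate of spread, 0 of the 60 and 0% of all genes were called, and 1 of the 60, DNAJC14, and 1.79% of all genes (220) had an unadjusted p below 0.05. DNAJC14, which also had the smallest p of the 60 with all libraries, was at 6.93 ± 2.72 FPKM in prepuberty and 11.5 ± 1.89 FPKM in postpuberty (SD, n = 3). Its log2 fold change was -0.70 (SE 0.32, limma adjusted p = 1). HSPB7 had a log2 fold change of -0.78 (SE 0.41, limma adjusted p = 1), and HSP90AA1 one of -0.75 (SE 0.67, limma adjusted p = 1) that became 0.056 without Prepuberty 1. Without Puberty 2, Prepuberty 1 and Postpuberty 1 limma called 0 of the 60 (0.00814% of all genes), and HSPA5 alone had an unadjusted p below 0.05 (beside 2.09% of all genes). DNAJB12 was higher in every prepuberty library (1.67%, beside 1.21% of all genes) and DNAJC17 in every postpuberty library (1.67%, beside 3.09%), together 3.33% beside 4.3%, with or without Puberty 2. DNAJC17 was at 4.12 ± 0.41 FPKM in prepuberty and 5.26 ± 0.19 FPKM in postpuberty (SD, n = 3).

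By list, the median log2 fold change between prepuberty and puberty was 0.23 for the constitutive and 0.21 for the heat-inducible genes, beside 0.16 for all genes. Without Puberty 2 these medians were -0.083, -0.0022 and -0.02. Between puberty and postpuberty they were -0.27, -0.33 and -0.22, and 0.06, 0.04 and -0.03 without Puberty 2. For the 5 small heat-shock proteins the medians were -0.41 and 0.33 with all 9 libraries, of opposite sign to all genes, and 0.0048 and 0.06 without Puberty 2. For the endoplasmic reticulum list they were 0.04 and -0.13, and -0.12 and 0.10 without Puberty 2. The median ratio of Puberty 2 to the median of the other 8 libraries was 0.519 for the constitutive list, 0.457 for the heat-inducible list, 1.60 for the small heat-shock proteins and 0.578 for all genes.

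The sums rest on annotated mRNA transcripts, of which the 60 genes have 157. One transcript is annotated for 25 genes, and of the 35 with more, 27 were led by the same transcript in all 8 libraries and 6 were led by another in Puberty 2. DNAJA1 had its leading transcript XM_004004149.5 at 15.1 to 21.1 FPKM in 6 of the libraries, at 6.48 in Puberty 3, at 0.428 in Postpuberty 3 and listed at 0 in Puberty 2. In Postpuberty 3 and Puberty 2, XM_060409157.1 took its place at 14.2 and 13.2 FPKM. In DNAJC6 the transcript XM_012168811.5 was at 38.1 to 71.1 FPKM in 7 libraries, at 6.75 in Prepuberty 1, where XM_012168865.4 led at 28.8, and listed at 0 in Puberty 2. For these genes the sum was steadier than its parts, since DNAJA1 as a whole was at 14.7 FPKM in Postpuberty 3. The FPKM of DNAJB2 was divided over several transcripts in each library. Another annotated gene overlaps 21 of the 60 genes, and how reads in shared stretches were divided is not given in the sources used here.

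**Figure D5:**
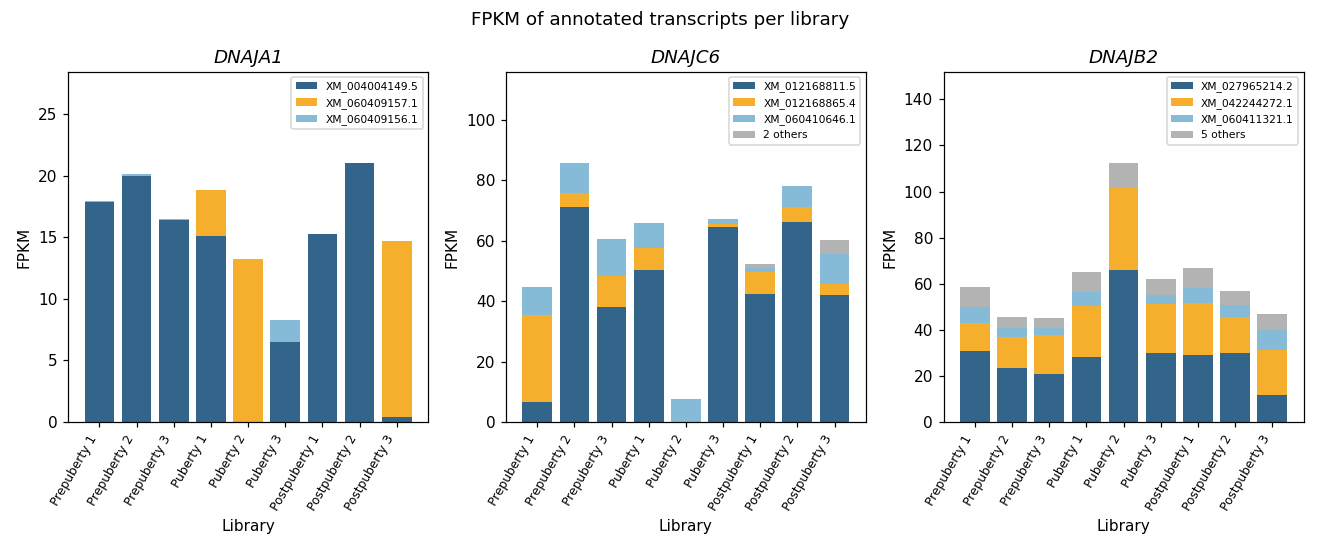
Stacked bars give the FPKM of the annotated mRNA transcripts of DNAJA1, DNAJC6 and DNAJB2 in each of the 9 libraries. The DNAJA1 bar changes colour in Postpuberty 3 and Puberty 2 (14.2 and 13.2 FPKM of a second transcript), and the DNAJC6 bar of Puberty 2 is short at 7.71 FPKM.

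Around these genes stand regulators, co-chaperones and other folding machines without an HSP or DNAJ symbol. Of 63 such genes listed, 60 had a mean of at least 1 FPKM, and limma called 0 of them in each of the 3 comparisons, both with all 9 libraries and without Puberty 2. At an unadjusted p below 0.05 there were 0 in each comparison with all 9 libraries (beside 1.51%, 1.81% and 0.66% of all genes), and without Puberty 2 there was 1 between prepuberty and puberty (beside 1.48%) and 0 in the other comparisons. HSF1, the main switch of the heat-shock response, was at 12.9 to 16.6 FPKM in the 8 libraries and at 23.7 in Puberty 2. BAG3, the partner of HSPB8, was at 10.1 to 32.5 FPKM and at 15 in Puberty 2. CRYAB, an abundant small heat-shock protein under another name, was at 351 to 785 FPKM in the 8 libraries and at 2685 in Puberty 2. In that library 24 of the 60 genes were above the range of the others and 27 below it (beside 21.1% and 53.3% of all genes), and CRYAB shared its direction with HSPB1.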

How the data were processed

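Hypothalamus RNA of 9 ewes was sequenced, with 1 library per animal and 3 per stage as the sample labels give them. The authors trimmed reads with Trimmomatic (0.32 in the submitters' processing notes), aligned them with HISAT2 to ARS-UI_Ramb_v3.0, assembled transcripts with StringTie and deposited FPKM for 115108 transcripts in a table described as raw counts. The values are not whole numbers, so no test for counts was run, and the number of reads behind a single value cannot be read from the table. FPKM is normalised to the total of each library and by transcript length, so a library with an unusual total shifts all of its genes.

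The 76684 mRNA rows were matched to RefSeq symbols (76682 matched) and summed per gene, without assembled transcripts. Stages were compared with limma 3.58.1 (R 4.3.3) on log2(FPKM + 1), with no further scaling, for the 12281 genes with a mean of at least 1, all 9 libraries in 1 fit with a variance trend and Benjamini-Hochberg adjustment over all genes. The fit was tested on simulated data. Correlations used exact permutation in Python 3.11.15 with scipy 1.17.1. Genes were described singly when they were on the constitutive, heat-inducible, endoplasmic reticulum or small heat-shock lists. So were those among the 5 most extreme in p, mean, coefficient of variation or position of Puberty 2. Some of these are given with the value of each library and others by their range. The rest of the 60 are given by their ranges or where stages did not overlap, and HSF1, BAG3 and CRYAB were chosen after their values were seen. The genes and lists were chosen with earlier results of these data known, and the classes by location and role were made after values had been seen. Alternatives were other pseudocounts, filters, scalings, a replicate block and libraries left out.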

Additional observations from a re-analysis of the deposited data

How the results depend on the processing

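The 60 genes gave 57 counts of calls under 19 settings, and 0 of these counts were above 0. Among all genes, 1 was called between prepuberty and puberty and 1 between prepuberty and postpuberty without Puberty 2, Prepuberty 1 and Postpuberty 1, a setting chosen after seeing the data. Genes without overlap numbered 4 between prepuberty and puberty, 2 after scaling to equal totals (beside 5.9% of all genes) and 5 to 10 with 1 library left out (beside 10.7% to 15.4%; 8 without Prepuberty 3, 9, 10 and 7 without Puberty 1, 2 and 3). Between puberty and postpuberty there were 3, 5 after quantile normalization (beside 6.17%) and 4 to 12 with 1 library left out (beside 13.3% to 20.3%; 12 without Postpuberty 3, 10 without Puberty 1, 8 without Postpuberty 1, 7 without Puberty 2 or Puberty 3). Between prepuberty and postpuberty there were 2, 4 after upper-quartile scaling (beside 3.7%) and 4 to 8 with any of the 6 libraries left out (beside 8.75% to 17.5%; 8 without Prepuberty 2). A smaller group overlaps less by construction. HSPA1A turned to -1.08 (log2) without Puberty 2 and -0.91 also without Prepuberty 1 and Postpuberty 1, and over single libraries left out it ranged from -1.08 to 1.47. HSPA8 and HSPB1 between prepuberty and puberty turned to -0.083 and 0.0048 without Puberty 2 (ranges with 1 library left out -0.083 to 0.478 and -0.981 to 0.0048), and HSP90AA1 between prepuberty and postpuberty to 0.056 without Prepuberty 1 (range -1.28 to 0.056). Without Puberty 2, Prepuberty 1 and Postpuberty 1 these values were 0.0503 for HSPA8, -0.259 for HSPB1 and -0.0688 for HSP90AA1, so these turns did not hold in that setting. Correlations with DNAJB1 numbered 0 over 8 libraries, 6 with all 9, 1 after scaling to equal totals and 0 to 1 with 1 library left out (1 without Postpuberty 1). With the replicate number as a replicate block, 0 genes were called in each comparison, with and without Puberty 2, and the correlations of deviations ran from -0.323 to 0.522 between libraries of the same number and from -0.572 to 0.307 between others. Not every same-number pair was above 0.1, so the numbers were not taken to pair the samples, although Prepuberty 2 with Postpuberty 2 gave the highest of all these values. The cause of these changes was not tested. With 3 animals per stage, differences below the spread between animals cannot be seen.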
